A study of Mus musculus with 11 samples.

Results

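The clustered protocadherins are cell adhesion genes that lie in 3 neighbouring clusters, named alpha, beta and gamma, on mouse chromosome 18. Their levels were described here in RNA-seq libraries of the early postnatal retina. Members were the rows of the count tables whose Ensembl ID maps to a protein-coding symbol of the Pcdha, Pcdhac, Pcdhb, Pcdhga, Pcdhgb or Pcdhgc series. The rule found 57 of the 47069 genes in the tables, of which 14 are alpha, 22 beta and 21 gamma genes. A further symbol of the same form, Pcdhgb8, is annotated as a polymorphic pseudogene and was left out. The rule itself reads symbols and gene types and uses no measured value.

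All mice were of the C57BL/6 strain. The Kir2.1 group (Brn3b-Kir2.1) carried Brn3b-cre and a transgene of human Kir2.1 fused to eYFP, placed behind a CAG promoter and a floxed STOP cassette. Kir2.1 is an inwardly rectifying potassium channel that lowers excitability, and Brn3b is a transcription factor of retinal ganglion cells, so Cre opens the transgene in cells that have expressed Brn3b. The control group is labelled wild type, while the extraction protocol describes Brn3b-cre mice, in which case Cre is common to both groups. The titles gave 2 wild-type and 3 Kir2.1 libraries at postnatal day 4 (P4), and 3 wild-type and 3 Kir2.1 libraries at P8. The protocol gives day 11 in place of day 8 for the later age, and the later age is called P8 here as in the titles. The source label names retinal ganglion cells, but the protocol dissociates the whole retina and states no sort. Whether replicates came from separate animals is not said, so p-values measure only the spread between these libraries, which may be technical.

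Each protocadherin cluster is a row of alternative promoters. In the alpha and gamma clusters, each promoter drives its own first exon, which encodes the extracellular and transmembrane parts and is spliced to constant exons shared by the whole cluster. Beta genes have no such constant exons. Most promoters are chosen at random by each neuron, with CTCF, cohesin and DNA methylation taking part, whereas the C-type isoforms Pcdhac1, Pcdhac2, Pcdhgc3, Pcdhgc4 and Pcdhgc5 are less subject to that choice. The proteins bind only matching isoforms on an opposing membrane, which gives neurons a surface identity. In the retina, the gamma cluster is known for dendrite self-avoidance in starburst amacrine cells and for the survival of ganglion cells and interneurons.

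On the mm10 (GRCm38) build, the alpha genes span 36930184 to 37187661 of chromosome 18, the beta genes 37264938 to 37524479 and the gamma genes 37661793 to 37841873. This layout sets how safely each gene can be counted. The median beta gene shared no exonic base with another annotated gene, whereas 46.4% of exonic bases were free of other genes in the median alpha gene and 54.8% in the median gamma gene. Of the 50-base stretches of its transcripts, the median beta gene shared 4.48% with other genes. The median gamma gene shared 44.4% and the median alpha gene 59.6%. Other genes here are the other members, Pcdhgb8 and genes outside the region of the clusters. Ambiguous records were kept apart from the gene counts (0.33% to 0.44% of uniquely aligned records), but the counting mode is not given. Counts of alpha and gamma genes are therefore only assumed to speak for the unshared part of each gene. The levels per kilobase below rest on the same assumption, and beta genes are the ones read most safely. Among beta genes, Pcdhb12 had 36.5% of exonic bases free of other genes because of an antisense gene. Pcdhb21 (90.3% free) and Pcdhb22 (93.1% free) overlap each other at their facing ends on the same strand. Pcdha4 had the lowest free share of the alpha genes, 7.0%. The strand setting of the counting is not given in the sources used here, so reads of members and of antisense partners cannot be told apart. For Pcdhga10 no exonic base was free of other genes on both strands. The symbol Pcdha11 belongs to 2 IDs, ENSMUSG00000007440 and ENSMUSG00000102206, which are kept apart by ID. The latter has 16.8% of its exonic bases free, and a pseudogene and antisense transcripts overlap it.

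Total gene counts per library ran from 9362215 to 12478838, of which members took 0.0984% to 0.152%. Marker genes of most retinal cell types were present: the summed level of 10 ganglion cell markers was 88.1 to 1119 CPM (counts scaled to a common library size) and that of 8 rod markers 151 to 5336 CPM. Some libraries stood apart. The summed level of 6 markers of dividing cells was 866 CPM in wild-type P4 replicate 2 and 1964 to 2458 CPM in the other 4 P4 libraries. The rod sum was 568 CPM in wild-type P8 replicate 1, 2320 CPM in replicate 2 and 5336 CPM in replicate 3, against 4760 to 5168 CPM in the Kir2.1 P8 libraries. Kir2.1 P8 replicate 2 had counts in 31325 genes, against 22609 to 24591 in the others. The same library had the fewest gene counts, 9362215. Its share of uniquely aligned records with no feature was 69.4%, against 57.0% to 62.4% in the others. The mouse gene Kcnj2, the counterpart of the human transgene, was at 5.81 and 10.6 CPM in wild type at P4, 2.45 to 6.41 CPM in Kir2.1 at P4, 3.74 to 17.2 CPM in wild type at P8 and 4.88 to 17.0 CPM in Kir2.1 at P8. These ranges overlapped at each age, and since the tables have no row for the transgene, the genotype labels were not checked by it.

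Levels were highest in the gamma cluster. Together the 21 gamma genes stood at 607 ± 81.7 CPM in P4 wild type (SD, n = 2) and 610 ± 22.6 CPM in P4 Kir2.1 (n = 3). At P8 the same sum was 764 ± 45.8 CPM for wild type (n = 3) and 711 ± 60.8 CPM for Kir2.1 (n = 3). The gamma genes made up 50.8% to 60.7% of all member counts in a library. The 22 beta genes made up 29.8% to 41.0% and the 14 alpha genes 5.64% to 10.8%. CPM was scaled by the effective library size, and sums of unequal numbers of genes do not rank the clusters per gene.

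Per kilobase of exon in no other gene on the same strand, the mean level over the 4 groups had a median of 2.47 CPM per kilobase in the alpha cluster, 3.40 in the beta cluster and 8.72 in the gamma cluster. The C-type isoform Pcdhgc3, which is known to promote dendrite growth and to bind Axin1, was the highest of all members at 30.0 CPM per kilobase, with a range of 22.7 to 43.3 over the 11 libraries. Pcdhga11 at 17.0 and Pcdhgb6 at 15.2 CPM per kilobase followed, and their library ranges of 11.6 to 23.8 and 12.8 to 17.5 overlapped. Since the strand setting of the counting is unknown, levels were also taken per kilobase free of other genes on both strands. On that length Pcdhgc3 (55.6) and Pcdhga11 (35.6) were again the highest, and Pcdhgb7 at 21.4 CPM per kilobase stood above Pcdhgb6 at 15.2. The lowest gamma genes on the same-strand length were Pcdhga1 at 4.18, Pcdhgc5 at 4.24 and Pcdhgb5 at 6.03 CPM per kilobase. Pcdhgc4, the isoform known for its role in neuronal survival, stood at 13.4 CPM per kilobase.

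Among beta genes, Pcdhb17 was highest at 12.6 CPM per kilobase, followed by Pcdhb20 at 9.39 and Pcdhb16 at 9.22. The lowest were Pcdhb1 at 0.0716, Pcdhb3 at 1.36 and Pcdhb5 at 1.88 CPM per kilobase. Pcdhb1, the first gene of the cluster, was listed at 0 in 4 of the 11 libraries and did not pass the filter on low counts. In the beta and alpha clusters, genes further along the cluster tended to have higher levels: Spearman's rho between order and level per kilobase was 0.87 over the 22 beta genes and 0.73 over the 14 alpha genes. Over the 21 gamma genes it was weak, at 0.31. The median was 2.42 CPM per kilobase in Pcdhb1 to Pcdhb11 and 4.49 in Pcdhb12 to Pcdhb22. These correlations are across genes of the same libraries, which are not independent replicates, and the gene models differ in length.

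In the alpha cluster, the C-type isoform Pcdhac2, known for axonal tiling of serotonergic neurons, was highest at 6.13 CPM per kilobase. Pcdha7 at 3.87 and Pcdha9 at 3.79 CPM per kilobase followed. This order depends on the strand: per kilobase free of other genes on both strands, Pcdha11 (ENSMUSG00000102206) was highest at 11.7 CPM per kilobase, with Pcdhac2 next at 6.13. The lowest on the same-strand length were Pcdha1 at 0.396, Pcdha4 at 0.762 and Pcdha8 at 1.48 CPM per kilobase. Pcdha4 had 0.0 to 0.849 CPM per library and, with Pcdhb1, was left out of the tests, so 55 members were tested.

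**Figure D1:**
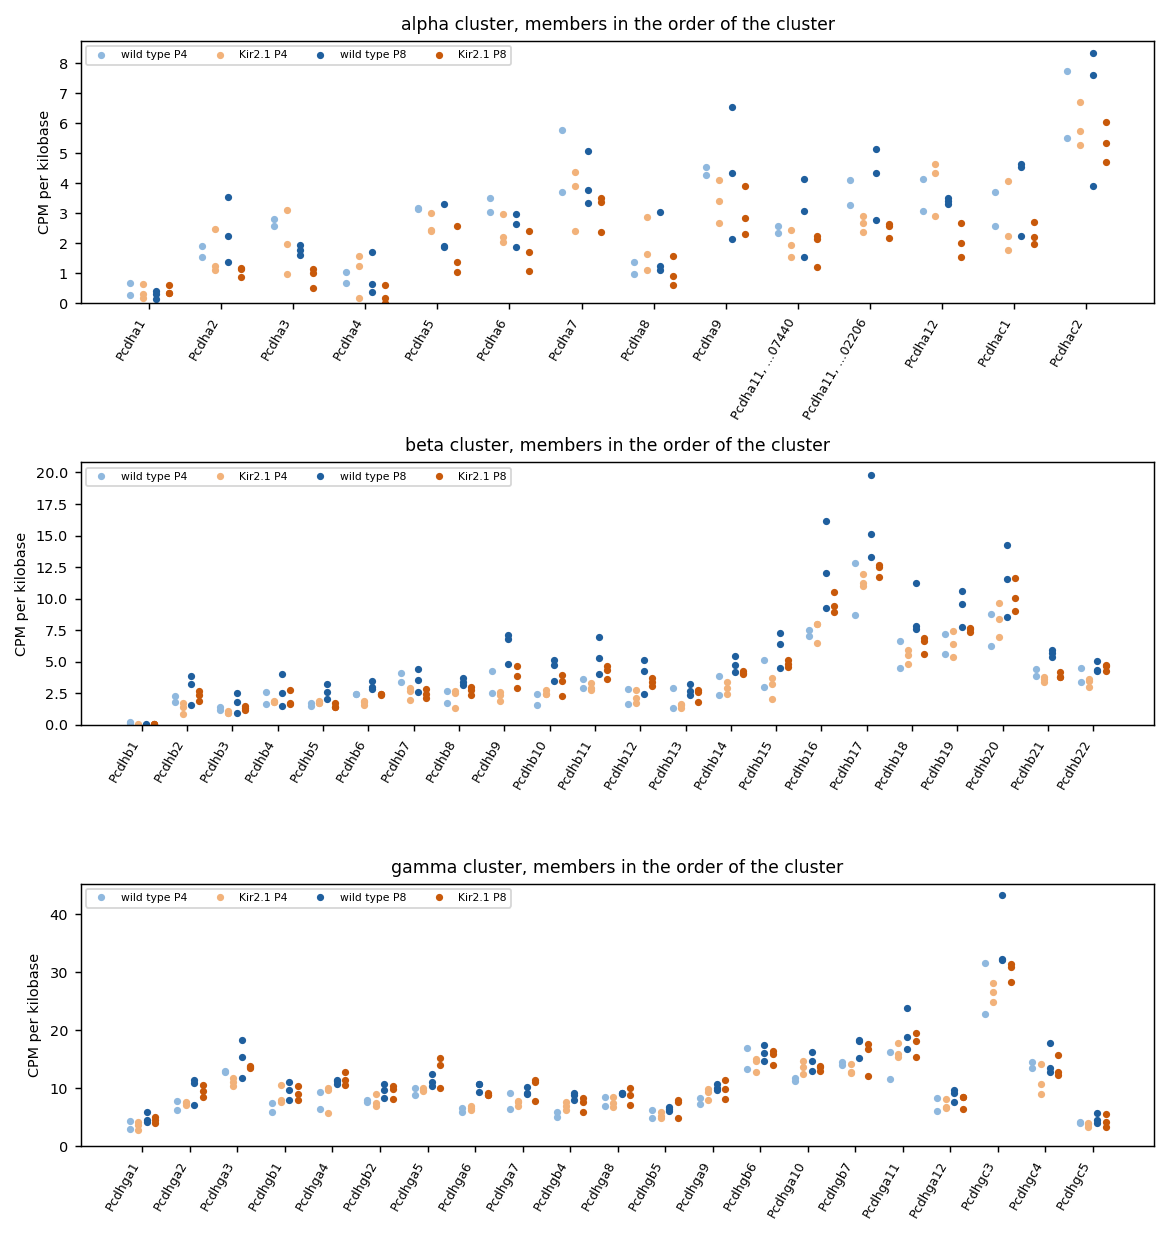
Level of each member in each of the 11 libraries, in CPM per kilobase of exon free of other genes on the same strand (linear axes, 1 panel per cluster, 1 point per library, coloured by group). Pcdhgc3 stands highest in the gamma cluster at a mean of 30.0 CPM per kilobase, and Pcdhb17, Pcdhb20 and Pcdhb16 stand highest in the beta cluster.

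At P8, retinas with ganglion cell Kir2.1 were compared with controls, which addresses whether altered activity of these cells goes with a change of the recognition genes. No member passed the test, but most had lower means in Kir2.1. For the alpha genes, wild-type replicates 1 to 3 reached sums of 130, 128 and 76.3 CPM, and the Kir2.1 replicates 65.7, 77.6 and 78.6 CPM. The beta sum was 648, 556 and 449 CPM (wild type) against 459, 407 and 438 CPM (Kir2.1). The gamma sum was 802, 777 and 713 CPM (wild type) against 641, 748 and 744 CPM (Kir2.1). Wild-type replicates 1 and 2 lay above every Kir2.1 library in each cluster, and replicate 3 lay within the Kir2.1 range in each.

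**Figure D2:**
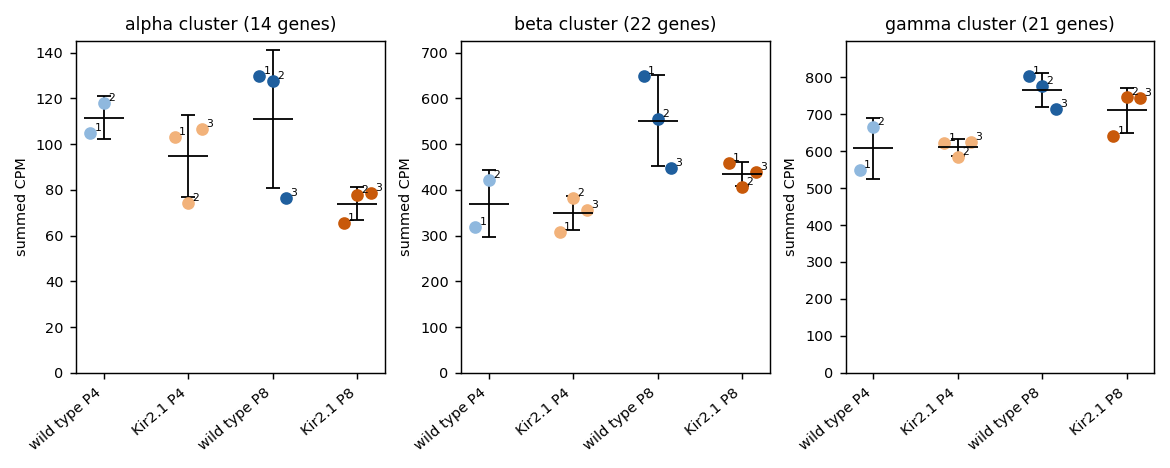
Summed CPM of the alpha, beta and gamma genes in each library (points, numbered by replicate), with the group mean and SD (bars; n = 2 for wild type P4, otherwise 3; axes start at 0). In the beta cluster the wild-type P8 libraries run from 449 to 648 CPM and the Kir2.1 P8 libraries from 407 to 459 CPM.

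By edgeR's quasi-likelihood test with Benjamini-Hochberg adjustment over the 18188 genes tested, 0 of 55 members differed between genotypes at P8, and the background was the same (percent of all genes called 0.0). At an unadjusted p under 0.05, 9 members were lower and none higher, beside 3.93% of all genes lower. DESeq2 called 0 members as well, beside 0.0165% of all genes. The fitted log2 fold change was below 0 in 49 of 55 members, beside 49.4% of all genes, with a median of -0.30 against 0.00 over all genes. It was below 0 in 12 of 13 alpha genes (median -0.65), 20 of 21 beta genes (median -0.37) and 17 of 21 gamma genes (median -0.10). All Kir2.1 libraries lay below all wild-type libraries for 14 members (4 alpha, 8 beta and 2 gamma genes) and above them for none, beside 5.15% and 5.47% of all genes. Without Kir2.1 P8 replicate 2 the median was -0.27, with 50 members below 0. Without wild-type P8 replicate 1 it moved to -0.16, with 42 below 0. Without replicate 3 the median was -0.33, and Pcdha11 (ENSMUSG00000102206) alone passed, at a log2 fold change of -0.94 (adjusted p = 0.045). That is 1.82% of the members, beside 1.21% of all genes called in the same fit.

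Among alpha genes with alternative first exons, the smallest p belonged to Pcdha11 (ENSMUSG00000102206). It was at 19.9, 23.7 and 12.8 CPM (wild type) against 10.1, 11.8 and 12.2 CPM (Kir2.1) at P8. The groups did not overlap, but wild-type replicate 3 lay next to the highest Kir2.1 library. Its log2 fold change was -0.72 ± 0.23 (SE; adjusted p = 0.699 by edgeR). Pcdha2 was at 8.88, 5.61 and 3.41 CPM (wild type) against 2.23, 2.91 and 2.94 CPM (Kir2.1), a log2 fold change of -1.14 ± 0.42 (adjusted p = 0.699), again with wild-type replicate 3 nearest to Kir2.1. In the authors' deposited table for P8, both passed at an adjusted p under 0.05: the log2 fold change of Pcdha11 (ENSMUSG00000102206) was -0.96 (adjusted p = 0.016) and that of Pcdha2 was -1.44 (adjusted p = 0.0442). That table has 2 of 54 members called, beside 7.27% of all its genes with an adjusted p, and which libraries entered it is not stated.

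Among beta genes, Pcdhb21 was at 25.1, 24.1 and 22.8 CPM (wild type) against 15.97, 17.9 and 16.2 CPM (Kir2.1) at P8. This was a tight pair of groups with a clear gap, including wild-type replicate 3, in a gene whose exon end overlaps Pcdhb22. Its log2 fold change was -0.52 ± 0.14 (adjusted p = 0.699 by edgeR), and it stayed between -0.58 and -0.49 with each library left out. Pcdhb5 was at 9.15, 11.4 and 7.15 CPM (wild type) against 4.96, 4.99 and 6.06 CPM (Kir2.1), a log2 fold change of -0.79 ± 0.24 (adjusted p = 0.699), also without overlap. The other 6 beta genes without overlap were Pcdhb6, Pcdhb8, Pcdhb9, Pcdhb17, Pcdhb18 and Pcdhb19, with log2 fold changes between -0.70 (Pcdhb9) and -0.30 (Pcdhb19). Pcdhb22, the last of the cluster, had nearly equal means of 28.0 ± 2.88 CPM (wild type) against 28.0 ± 1.61 CPM (Kir2.1) (SD, n = 3 each).

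In the gamma cluster the median fold change lay nearest to 0, and the clusters were not tested against each other. Pcdhgb4 was at 28.9, 33.0 and 31.4 CPM (wild type) against 21.3, 27.2 and 30.0 CPM (Kir2.1), with overlap. Its log2 fold change was -0.25 ± 0.16 (adjusted p = 0.718 by edgeR), and ran from -0.36 to -0.12 with each library left out. Pcdhga6 was at 27.9, 27.9 and 24.3 CPM (wild type) against 24.0, 23.0 and 23.0 CPM (Kir2.1). Its groups were separate by a narrow margin, with a log2 fold change of -0.19 ± 0.14 (adjusted p = 0.737).

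The 5 C-type isoforms all had lower fitted means in Kir2.1 at P8, and none passed. Pcdhac1 was at 11.6, 11.9 and 5.77 CPM (wild type) against 5.05, 6.96 and 5.71 CPM (Kir2.1) (log2 fold change -0.72 ± 0.36, adjusted p = 0.699 by edgeR). Pcdhgc3 was at 146, 108 and 109 CPM (wild type) against 104, 95.7 and 106 CPM (Kir2.1) (-0.25 ± 0.15, adjusted p = 0.707). Only Pcdhgc3 among these 5 had no overlap between groups. Pcdhac2 (-0.30 ± 0.26), Pcdhgc4 (-0.11 ± 0.18) and Pcdhgc5 (-0.13 ± 0.20) overlapped. The signs of Pcdhgc4 and Pcdhgc5 turned with some library left out. The other C-type isoforms kept their sign but moved in size. Pcdhac1 ran from -0.99 to -0.56, Pcdhac2 from -0.57 to -0.10 and Pcdhgc3 from -0.32 to -0.094.

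Cell type markers are given beside these values. The summed level of 6 amacrine cell markers was 2979, 2030 and 1066 CPM over wild-type replicates 1 to 3 and 1462, 879 and 1549 CPM in Kir2.1. All 6 had fitted log2 fold changes below 0 (median -0.59), and none passed edgeR's test. The 8 rod markers had log2 fold changes above 0 in all 8 (median 0.90, none called), with the sums given above. The ganglion cell markers summed to 155, 226 and 88.1 CPM (wild type) against 177, 119 and 142 CPM (Kir2.1), and 9 of 10 were below 0 (median -0.17, none called). The 5 starburst amacrine cell markers summed to 198, 180 and 27.3 CPM (wild type) against 140, 48.5 and 122 CPM (Kir2.1), and all 5 were below 0 (median -0.36, none called). Markers of dividing cells (6 of 6, median 0.38), bipolar cells (6 of 6, median 0.18), Müller glia (4 of 4, median 0.21) and microglia (5 of 5, median 0.44) were above 0, and none was called. Of 3 pigment epithelium markers, 2 were tested, and both were at low levels but higher in every Kir2.1 library than in any wild-type one, each with an unadjusted p under 0.05 and neither called. Ttr was at 0.0915, 0.17 and 0.0 CPM (wild type) against 0.248, 9.14 and 1.07 CPM (Kir2.1). Pmel was at 0.0, 0.0849 and 0.0812 CPM (wild type) against 1.24, 3.95 and 0.535 CPM (Kir2.1). None of the rod or amacrine markers was at 0 in any library. Of the ganglion cell markers only Pou4f3 was, and of the starburst markers Chat and Fezf1 were. Wild-type replicate 3 was lowest of its group in protocadherin, amacrine, starburst and ganglion cell sums and highest in rods. Within Kir2.1, the beta sums were in the order of the ganglion cell and starburst sums (replicate 1 highest, replicate 2 lowest). The amacrine sum was not in that order, being highest in replicate 3 and lowest in replicate 2. The alpha and gamma sums were not either, and both were lowest in replicate 1. The part of these markers in the member values was not tested, and in bulk retina fewer cells of a type and less RNA per cell cannot be told apart.

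At P4 the same comparison gave smaller and mixed differences. The alpha sum was 105 and 118 CPM (wild type) against 103, 74.2 and 107 CPM (Kir2.1). The beta sum was 318 and 421 CPM (wild type) against 309, 382 and 355 CPM (Kir2.1). The gamma sum was 549 and 665 CPM (wild type) against 623, 584 and 624 CPM (Kir2.1). The groups overlapped in every cluster, and wild-type replicate 2 was the higher of its group in each.

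By edgeR's quasi-likelihood test, 0 of 55 members differed at P4 (percent of all genes called 0.0). At an unadjusted p under 0.05 only Pcdhb6 was counted, beside 7.22% of all genes. DESeq2 called 0 members, beside 0.187% of all genes. The log2 fold change was below 0 in 37 of 55 members, beside 48.7% of all genes, with a median of -0.10. It was below 0 in 11 of 13 alpha genes (median -0.32), 15 of 21 beta genes (median -0.12) and 11 of 21 gamma genes (median -0.03). Groups did not overlap for 10 members that were lower and 4 that were higher in Kir2.1, beside 14.4% and 12.4% of all genes. The direction rested on 1 control library: leaving out P4 wild-type replicate 2 gave a median of 0.10 with 18 members below 0, and leaving out replicate 1 gave -0.26 with 46 below 0. Without Kir2.1 P4 replicate 2 the median was -0.064, with 31 below 0.

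Pcdhb6 was at 9.05 and 9.21 CPM (wild type) against 5.94, 7.05 and 6.73 CPM (Kir2.1) at P4, without overlap (log2 fold change -0.47 ± 0.21, adjusted p = 0.682 by edgeR). Pcdhb7 was at 11.9 and 14.4 CPM (wild type) against 6.78, 10.1 and 9.44 CPM (Kir2.1), also apart (-0.58 ± 0.27, adjusted p = 0.691). Both were also lower in the mean at P8, where Pcdhb6 was at 11.6 ± 1.37 CPM (wild type) against 9.05 ± 0.278 CPM (Kir2.1) (SD, n = 3 each). Pcdha11 (ENSMUSG00000102206) was at 15.1 and 18.9 CPM (wild type) against 12.4, 10.96 and 13.5 CPM (Kir2.1) at P4, without overlap (-0.47 ± 0.25, adjusted p = 0.706). Pcdha7 overlapped between groups (-0.42 ± 0.33, adjusted p = 0.792 by edgeR), and its log2 fold change ran from -0.70 to -0.067 with each library left out.

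The gamma genes with the smallest p at P4 lay in the other direction. Pcdhgb1 was at 15.6 and 19.3 CPM (wild type) against 27.7, 20.8 and 20.0 CPM (Kir2.1) (log2 fold change 0.38 ± 0.21, adjusted p = 0.716 by edgeR). Pcdhgb4 was at 17.9 and 21.3 CPM (wild type) against 24.6, 27.2 and 22.3 CPM (Kir2.1) (0.33 ± 0.18, adjusted p = 0.713). In both, every Kir2.1 library lay above the wild-type ones. With each library left out, Pcdhgb1 ran from 0.23 to 0.55 and Pcdhgb4 from 0.21 to 0.46. The C-type isoforms overlapped between groups, with log2 fold changes of -0.22 ± 0.40 for Pcdhac1, -0.16 ± 0.29 for Pcdhac2, -0.03 ± 0.17 for Pcdhgc3, -0.32 ± 0.20 for Pcdhgc4 and -0.11 ± 0.22 for Pcdhgc5. Those of Pcdhac1, Pcdhac2 and Pcdhgc3 changed sign with some library left out. Cell type markers also differed in their means at P4, and none was called by edgeR. The 10 ganglion cell markers were all below 0 (median -1.32), with sums of 1119 and 719 CPM (wild type) against 521, 181 and 563 CPM (Kir2.1). The 5 starburst markers were all below 0 as well (median -2.57), with sums of 73.3 and 120 CPM (wild type) against 47.9, 44.5 and 59.0 CPM (Kir2.1). The groups did not overlap in either sum. Of the 6 bipolar cell markers, 5 were below 0 (median -2.97), but the large differences rested on wild-type replicate 2. Grm6 reached 57.3 CPM there, against 0.0 CPM for wild-type replicate 1 and 0.0929 to 0.46 CPM for Kir2.1, and Trpm1 and Vsx1 were likewise high in replicate 2 alone. All 3 horizontal cell markers were below 0 (median -0.43). All 6 markers of dividing cells (median 0.31) and all 5 of microglia (median 0.27) were above 0. The part of these differences in the member values was not tested.

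**Figure D3:**
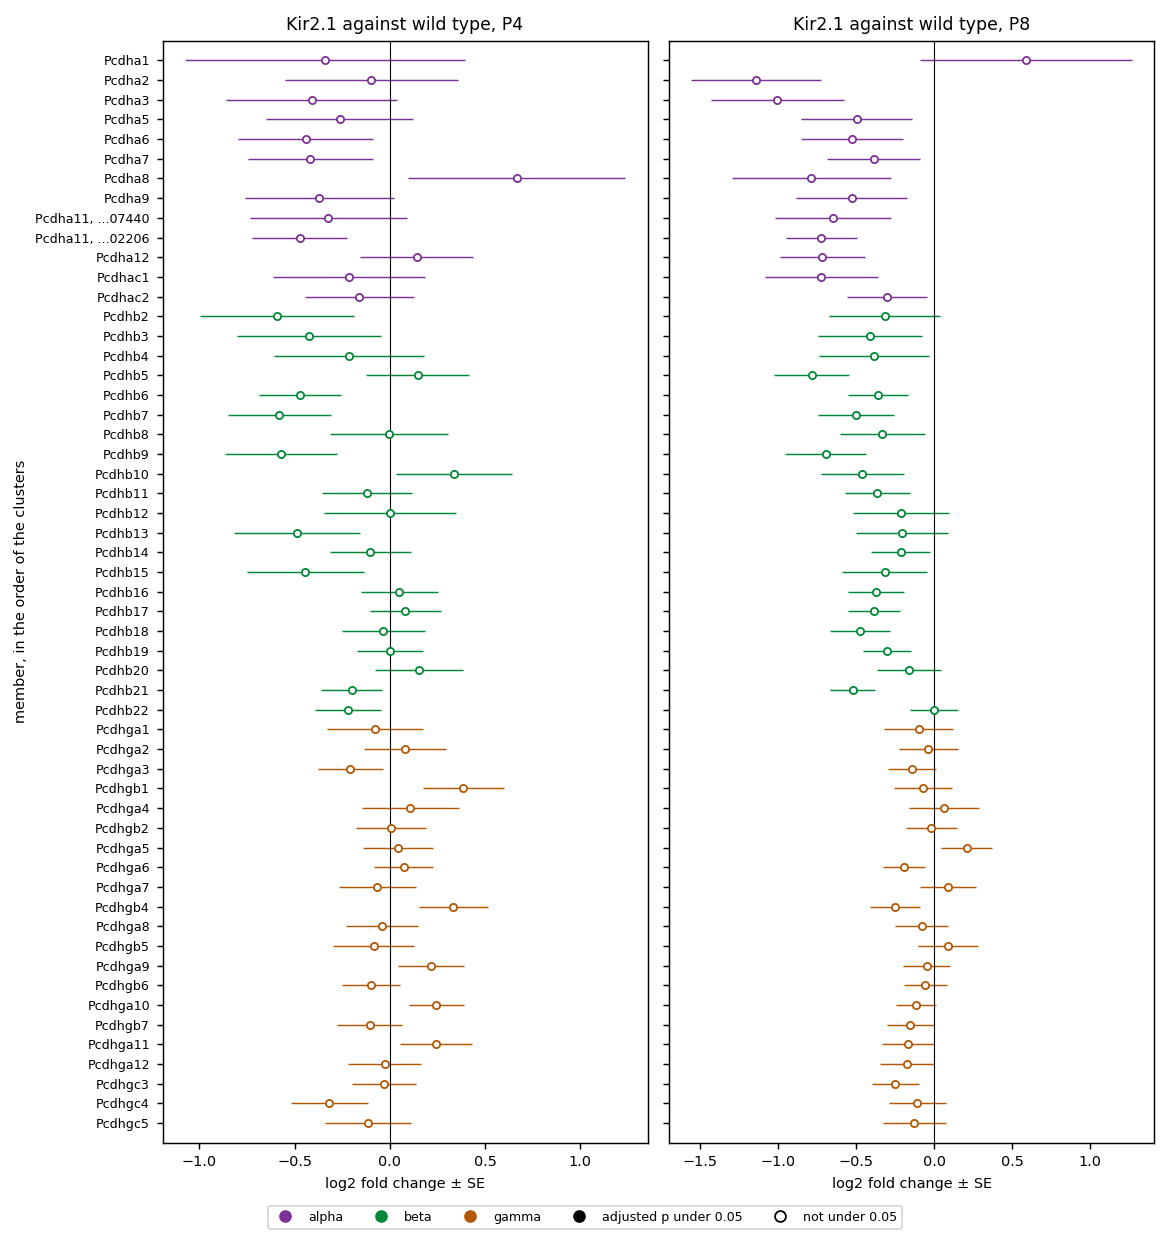
Log2 fold change of Kir2.1 against wild type for the 55 members tested, at P4 (left) and P8 (right), coloured by cluster. The SE was derived from edgeR's test, and open points have an adjusted p of 0.05 or more. All points are open, and at P8 49 of 55 lie left of 0.

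The difference between the P8 and P4 genotype effects was tested directly as an interaction. It passed for 0 of 55 members (percent of all genes called 0.0; edgeR). At an unadjusted p under 0.05 it counted Pcdhb5 (-0.93 ± 0.36) and Pcdhgb4 (-0.58 ± 0.24), beside 3.09% of all genes, and DESeq2 called 0 members (0.0% of all genes). Pcdhgb4 had the higher mean in Kir2.1 at P4 and the lower at P8, as given above. The interaction was below 0 in 40 of 55 members, beside 50.5% of all genes, with a median of -0.16. The size of this median depended on single wild-type libraries, while it stayed below 0 with each library left out. The median was -0.063 (30 below 0) without wild-type P4 replicate 1 and -0.37 (45 below 0) without P4 replicate 2. It was -0.048 (35 below 0) without wild-type P8 replicate 1 and -0.29 (46 below 0) without P8 replicate 3. The genotype effects at the 2 ages were therefore not shown to differ.

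From P4 to P8, 9 beta and 3 gamma genes rose in the averaged test by edgeR. No alpha gene passed it, although Pcdha3 was called lower under some alternatives. In wild type, the beta sum was 369 ± 73.0 CPM at P4 (SD, n = 2) and 551 ± 99.7 CPM at P8 (n = 3). In Kir2.1 it was 349 ± 37.2 and 435 ± 26.5 CPM (n = 3 each). The alpha genes summed to 112 ± 9.30 and 111 ± 30.2 CPM in wild type, and to 94.8 ± 17.9 and 74.0 ± 7.20 CPM in Kir2.1. Averaged over genotypes, 12 of 55 members passed edgeR's test and all 12 were higher at P8, beside 22.8% of all genes called and 10.7% called higher. The share of members called, 21.8%, was near that of all genes. They were 9 of 21 beta genes, 3 of 21 gamma genes and 0 of 13 alpha genes (2 at an unadjusted p under 0.05, beside 35.0% of all genes). The log2 fold change was above 0 in 20 of 21 beta genes (median 0.46) and 21 of 21 gamma genes (median 0.29), and below 0 in 10 of 13 alpha genes (median -0.12), beside 52.0% of all genes above 0 and 48.0% below. The count rested on single libraries: leaving out P4 wild-type replicate 1 left 1 call (Pcdhga6), beside 10.8% of all genes, and leaving out its replicate 2 gave 19, beside 19.7%. Leaving out wild-type P8 replicates 1, 2 and 3 in turn gave 6, 7 and 15. Kir2.1 P4 replicates 1, 2 and 3 gave 6, 10 and 7, and Kir2.1 P8 replicates 1, 2 and 3 gave 11, 7 and 5. In these 9 fits 18.1% to 24.4% of all genes were called. Every call in the fits with a library left out was higher at P8, except 1 of the 10 without Kir2.1 P4 replicate 2, which was Pcdha3 (log2 fold change -1.06, adjusted p = 0.017). Over all libraries Pcdha3 was at -0.89 ± 0.31 (adjusted p = 0.056 by edgeR), and it passed as lower with the DESeq2 test (adjusted p = 0.0277), with no filter (0.0297) and with the replicate block (0.0476).

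Among the 9 beta genes called, Pcdhb16 was at 36.8 and 39.2 CPM (wild type) against 34.1, 41.9 and 41.9 CPM (Kir2.1) at P4. The P8 values were 84.3, 62.9 and 48.6 CPM (wild type) against 55.1, 46.5 and 49.1 CPM (Kir2.1). All P8 libraries lay above all P4 libraries, and it rose by a log2 fold change of 0.57 ± 0.14 (adjusted p = 0.0102 by edgeR). Pcdhb14 was at 20.7 to 34.0 CPM at P4 and 34.9 to 47.2 CPM at P8, also without overlap (0.55 ± 0.14, adjusted p = 0.0165). Pcdhb9 showed the largest fold of the 12, with 5.68 to 13.0 CPM at P4 and 9.04 to 21.7 CPM at P8 (0.82 ± 0.20, adjusted p = 0.011), and its ages overlapped.

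The other 6 beta genes called overlapped between ages in at least 1 library. Pcdhb10 rose by 0.75 ± 0.20 on the log2 scale, Pcdhb12 by 0.71 ± 0.24, Pcdhb15 by 0.64 ± 0.21, Pcdhb11 by 0.60 ± 0.16, Pcdhb18 by 0.46 ± 0.15 and Pcdhb19 by 0.39 ± 0.12. Pcdhb12, Pcdhb15 and Pcdhb19 each lost the call in 8 of the 11 fits with a library left out, and Pcdhb18 in 7. The adjusted p of the 6 genes over all libraries ran from 0.0171 (Pcdhb11) to 0.0473 (Pcdhb12). Of these, Pcdhb12 is the one with an antisense gene over much of its exon. Pcdhb7 was the beta gene whose log2 fold change was below 0, at 6.78 to 14.4 CPM at P4 and 7.58 to 15.4 CPM at P8.

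In the gamma cluster, Pcdhga6 gave the most even change. It was at 15.4 and 17.3 CPM (wild type) against 16.2, 18.3 and 17.0 CPM (Kir2.1) at P4. The P8 values were 27.9, 27.9 and 24.3 CPM (wild type) against 24.0, 23.0 and 23.0 CPM (Kir2.1). No P8 library reached down to the P4 range, and it rose by 0.57 ± 0.10 on the log2 scale (adjusted p = 0.00209 by edgeR). Pcdhga2 (0.44 ± 0.14, adjusted p = 0.046) and Pcdhgb4 (0.37 ± 0.12, adjusted p = 0.0438) also rose, with overlap between ages, and each lost the call in 9 of the 11 fits with a library left out. Among C-type isoforms none passed: Pcdhgc3 was at 0.29 ± 0.11 (adjusted p = 0.0825), Pcdhgc4 at 0.16 ± 0.14, Pcdhgc5 at 0.21 ± 0.15, Pcdhac1 at 0.03 ± 0.27 and Pcdhac2 at -0.07 ± 0.19. The last 2 changed sign with some library left out.

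**Figure D4:**
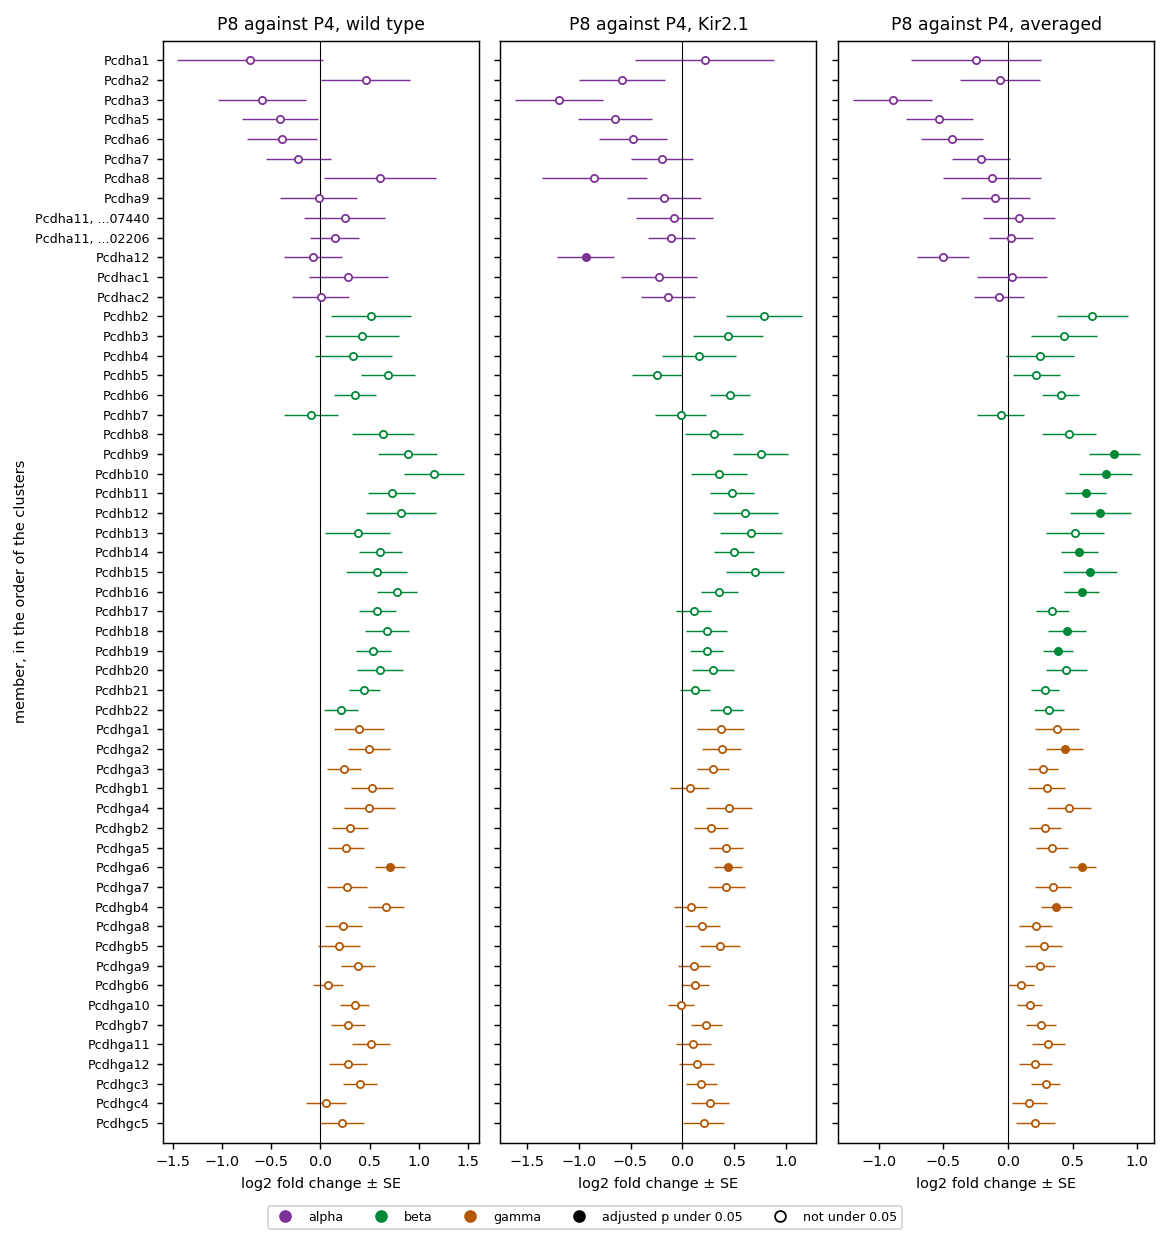
Log2 fold change of P8 against P4 for the 55 members tested, in wild type, in Kir2.1 and averaged over genotypes. The SE was derived from edgeR's test, and filled points have an adjusted p under 0.05. The averaged panel has 12 filled points, all beta or gamma and all right of 0, while 10 of 13 alpha points lie left of 0.

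Within each genotype fewer members passed. In wild type 1 of 55 passed edgeR's test, beside 4.39% of all genes called and 0.803% called higher: Pcdhga6 rose by 0.71 ± 0.16 on the log2 scale (adjusted p = 0.0237). In Kir2.1, 2 of 55 passed, beside 16.7% of all genes called, 7.93% higher and 8.73% lower: Pcdhga6 rose by 0.44 ± 0.14 (adjusted p = 0.0472) and Pcdha12 fell by 0.93 (SE 0.27, adjusted p = 0.0355). Pcdha12 was at 10.8, 7.20 and 11.5 CPM at P4 and 3.81, 6.65 and 4.99 CPM at P8 in Kir2.1, without overlap. In wild type it stayed between 7.60 and 10.2 CPM at both ages. The call of Pcdhga6 was lost in wild type without P4 replicate 1 or P8 replicate 2, and in Kir2.1 in 10 of the 11 fits with a library left out, all but that without wild-type P8 replicate 3. That of Pcdha12 was lost without Kir2.1 P4 replicate 1 or 3 or Kir2.1 P8 replicate 1 or 3. The median change over members was 0.38 for wild type and 0.22 for Kir2.1. The difference between these age changes is the interaction above, which no member passed.

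**Figure D5:**
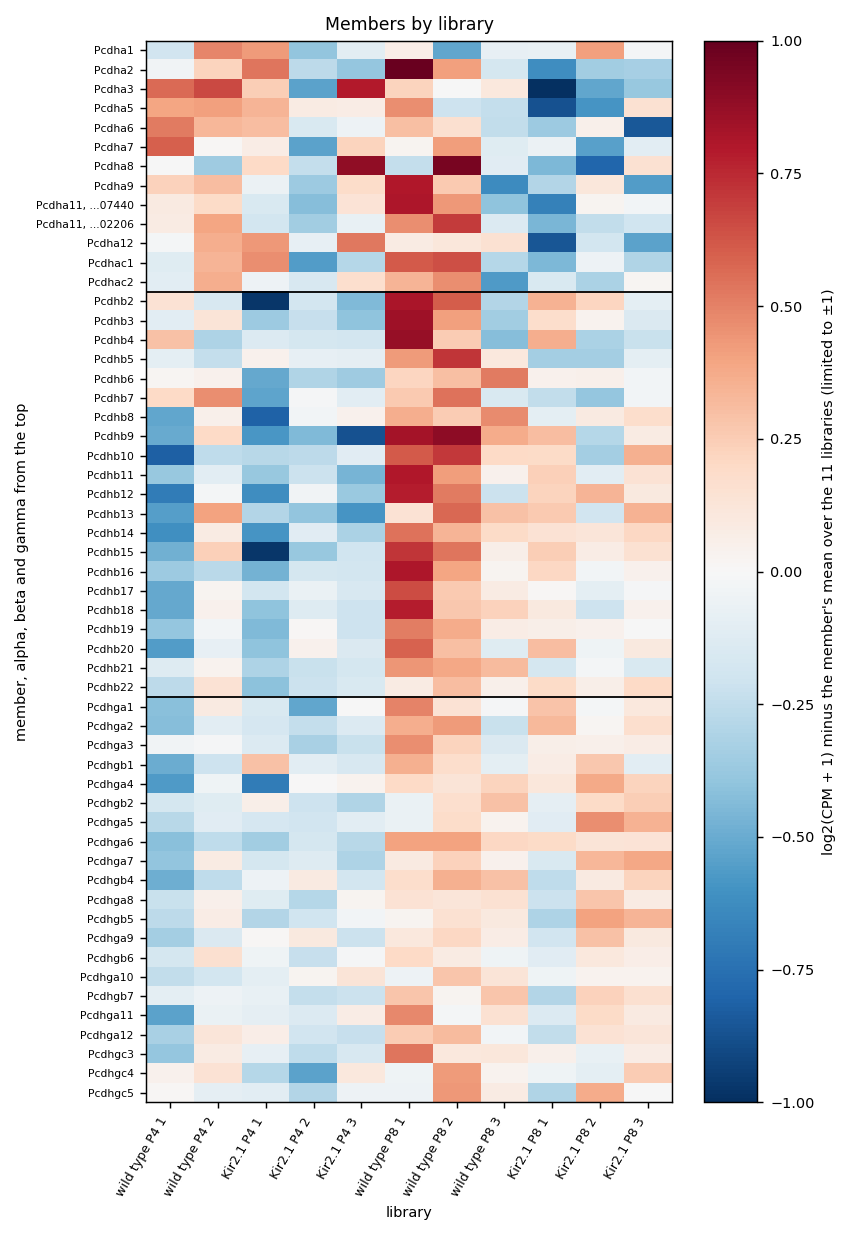
Level of the 55 members tested in each library, as log2(CPM + 1) minus the member's mean over the 11 libraries (colour limited to 1 either side of 0); black lines part the alpha, beta and gamma genes. Wild-type P8 replicates 1 and 2 are high over most alpha and beta genes, and wild-type P8 replicate 3 is nearer to the Kir2.1 P8 libraries there.

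Marker RNA of several cell types also differed between the ages. All 6 markers of dividing cells fell (median log2 fold change -4.00) and all 8 rod markers (median 3.31) and 6 bipolar cell markers (median 4.10) rose by edgeR's test. Of the 10 ganglion cell markers, 9 fell and 1 rose (median -2.36). The part of these changes in the rise of these beta and gamma genes was not tested.

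Genes that act on or with the clustered protocadherins were described from lists of known roles. Of 18 regulators of their promoters, 8 passed the averaged age test, 7 lower and 1 higher, beside 22.8% of all genes. The DNA methyltransferase Dnmt3b, which methylates these promoters in the embryo, fell by 1.36 on the log2 scale (SE 0.16), and the maintenance methyltransferase Dnmt1 fell by 0.51 (SE 0.09), while Dnmt3a rose by 0.50 (SE 0.09). The cohesin subunits Rad21 (-0.49), Smc1a (-0.54) and Stag1 (-0.31), the cohesin regulator Pds5a (-0.29) and the silencing factor Wiz (-0.23) fell. Ctcf, whose protein anchors the promoter loops, was at -0.21 and did not pass (adjusted p = 0.0892 by edgeR). Within genotypes, Dnmt3b was lower in wild type (-1.16), beside 4.39% of all genes called. In Kir2.1, beside 16.7% of all genes, Dnmt3b (-1.56), Dnmt1 (-0.75), Smc1a (-0.67), Rad21 (-0.53), Pds5a (-0.41) and Stag1 (-0.37) were lower and Dnmt3a (0.65) higher.

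Of 23 genes for cleavage enzymes and cytoplasmic partners, 7 passed the averaged age test, 2 higher and 5 lower, beside 22.8% of all genes called and 10.7% called higher. The kinase Prkca rose by 1.35 and the actin regulator Wasf3 by 0.25 on the log2 scale. The kinases Ptk2b (-0.98) and Fyn (-0.63), the kinase substrate Marcks (-0.71) and the actin regulators Wasf2 (-0.59) and Cyfip1 (-0.29) fell. Within genotypes, Prkca (1.11), Marcks (-0.60) and Fyn (-0.57) passed in wild type, beside 4.39% of all genes. Prkca (1.60), Marcks (-0.81), Fyn (-0.69), Wasf2 (-0.63) and Wasf3 (0.35) passed in Kir2.1, beside 16.7% of all genes. Prkca is also known as a marker of rod bipolar cells, whose list rose. Of 12 protocadherins outside the clusters, Pcdh9 (-0.44) and Pcdh11x (-0.55) fell in the averaged test, beside 22.8% of all genes called. None passed in wild type, and Pcdh9 (-0.59), Pcdh11x (-0.65) and Pcdh12 (2.02) passed in Kir2.1, beside 16.7%.

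None of these 53 genes passed either genotype test by edgeR or by DESeq2. At P8 the log2 fold change of Kir2.1 against wild type was below 0 in 10 of 12 protocadherins outside the clusters (median -0.32), 13 of 23 partners (median -0.05) and 6 of 18 regulators (median 0.07), beside 49.4% of all genes. At an unadjusted p under 0.05, edgeR counted 4, 2 and 2 genes of these lists at P8, beside 6.82% of all genes, and 3, 0 and 2 at P4, beside 7.22%.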

How the data were processed

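The authors deposited a table of whole-number counts per Ensembl gene for each of the 11 libraries. Per the submitters' processing notes, cutadapt 1.18, STAR 2.5.0c, SAMtools 1.9, bedtools 2.26.0, HTSeq 0.6.1 and DESeq2 were used, with build mm10. The annotation, counting mode and strand setting are not given in the sources used here. Lines that name no gene (74.6% to 79.8% of all records) entered neither library sizes nor tests. Of uniquely aligned records, 57.0% to 69.4% were assigned to no feature. Since counting mode and strand setting are not given, these cannot be said to lie outside genes. The authors' deposited tables of Kir2.1 against wild type hold, per the file headers, a mean normalized count (a signal), a log2 fold change, its standard error, a statistic (a score) and each p-value, raw and adjusted. They are quoted only as the authors' own.

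Symbols were looked up by ID for 46488 of 47069 genes, and positions and exons came from GENCODE M21 (GRCm38). Counts were fitted with edgeR 4.0.16 in R 4.3.3, by its quasi-likelihood test with 4 group means over all 11 libraries, TMM scaling and filterByExpr by group, and p-values were adjusted over the 18188 genes tested, with a threshold of 0.05. The SE of each log2 fold change was derived, as its absolute size divided by the square root of the F statistic of edgeR's test. CPM used TMM-scaled library sizes. Alternatives were DESeq2 1.42.0 (size factors and test), other filters, fits of only the groups compared, a replicate block and each library left out.

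The members and gene lists were chosen with earlier results of these data known. Values with tests are given for each member or listed gene that passed in a contrast, for the 2 members of smallest p per cluster in each genotype comparison (P4 and P8, C-type left out), and for the C-type isoforms. The 3 highest and 3 lowest members per cluster are given by level per kilobase. Other members named beside a count of groups without overlap, Pcdhb22, Pcdhb7, Pcdha3 and Ctcf in the age comparison, Pcdhgb7 and Pcdha11 by level, and the genes of the interaction were chosen after their values were seen.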

Additional observations from a re-analysis of the deposited data

How the results depend on the processing

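In the Kir2.1 against wild type comparisons at P4 and P8 and in their difference, 0 members were called under every alternative, except 1 at P8 without wild-type P8 replicate 3 (range 0 to 1 with each library left out). The age counts depended on the settings. In wild type the 1 member called (4.39% of all genes called) became 5 with the DESeq2 test (8.49%), 4 with no filter (5.63%), 2 with a mean of at least 1 CPM (5.19%) and 0 with only the groups compared (0.666%), and 0 to 5 with each library left out (0.823% to 7.19%). In Kir2.1 the 2 members called (16.7%) became 4 with the DESeq2 test (2 higher and 2 lower, 20.7%) and 5 with only the groups compared (4 higher and 1 lower, 25.8%), and 0 to 2 with each library left out (9.76% to 20.4%). The averaged count of 12 (22.8%) ran from 1 to 19 with each library left out (10.8% to 24.4%) and was 18 with the DESeq2 test (17 higher and 1 lower, 26.7%). The cause was not tested. With 1 wild-type P4 library left, it was assumed to vary like the other groups.

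Log2 fold changes that changed sign with a library left out were Pcdhac1 (-0.62 to 0.072), Pcdhac2 (-0.39 to 0.11) and Pcdhgc3 (-0.25 to 0.23) for Kir2.1 at P4, Pcdhgc4 (-0.23 to 0.056) and Pcdhgc5 (-0.33 to 0.032) for Kir2.1 at P8, and Pcdhac1 (-0.094 to 0.22) and Pcdhac2 (-0.18 to 0.065) for the averaged age change. Deviations from the group means correlated at -0.08 to 0.14 (median 0.05) for libraries of the same replicate number. For different numbers they correlated at -0.15 to 0.14 (median -0.01). With so few libraries per group, deviations within a group are tied to each other, so this cannot decide whether the libraries were paired. With the replicate number as a block, 0 members were called in the Kir2.1 age comparison (16.1% of all genes called), 1 in the wild-type one (3.07%), 9 in the averaged one (8 higher and 1 lower, 20.5%) and 0 in the genotype ones. Alpha genes had the fewest counts (12212 over all libraries, against 54612 for beta and 85763 for gamma genes), which limits their precision most.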
